A study of Drosophila melanogaster with 8 samples.

Results

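The comparison of dTip60E431Q with control across both housings sets 4 arrays of flies that express a HAT-defective Tip60 against 4 arrays of control flies, with housing (ISO or EE) as a covariate. It uses all 8 arrays of the study and asks which genes differ by genotype whether the flies were isolated or group housed. Of 18769 probe sets tested, 26 (0.139%) passed a Benjamini-Hochberg adjusted p under 0.05 with a fold of at least 1.3 in limma, which is what "called" means here. In each of these 26, all 4 dTip60E431Q arrays lay on the same side of all 4 control arrays, so the direction was the same in ISO and in EE. They represent 18 named genes, 12 higher and 6 lower in dTip60E431Q, and 7 probe sets for which the annotation gives no gene symbol.

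Tip60 is a histone acetyltransferase (HAT) of the MYST family. It works in a large chromatin complex that acetylates histones, exchanges a histone variant and takes part in transcription and in the repair of broken DNA. Kenyon neurons are the intrinsic neurons of the mushroom body (MB), the centre of olfactory learning in the fly brain.

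The 4 groups, with 2 arrays each, were dTip60E431Q ISO, dTip60E431Q EE, control ISO and control EE. dTip60E431Q flies carried UAS-mCD8-GFP;Tip60E431Q, a dominant negative HAT mutant transgene together with a membrane GFP, and control flies carried UAS-mCD8-GFP without it. Both were crossed to the MB GAL4 driver OK-107, so driver and GFP were common to all groups, and that driver is also active in the pars intercerebralis, the suboesophageal ganglion and the optic lobes. Newly eclosed flies spent 5 days either alone (ISO) or in a group of 30 at an equal sex ratio (EE), and GFP-positive cells were then sorted from pooled brains. Age was 5 days by the labels on 7 of the arrays and 6 days on dTip60E431Q ISO replicate 2. Nothing says that replicate arrays were made from different pools of flies, so the p-values reflect array-to-array spread that may be technical in origin.

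The arrays had median log2 signals of 6.41 to 6.50. Within a group, the difference between its 2 arrays had a standard deviation over probe sets of 0.183 in dTip60E431Q ISO, 0.372 in dTip60E431Q EE, 0.479 in control ISO and 0.358 in control EE. Of 11 measured Kenyon neuron markers, 10 lay above the array median on all 8 arrays, as did 8 of 8 neuron markers, but so did 9 of 9 glia and 7 of 7 photoreceptor markers. The mean signal of 9 midgut markers was 8.73 to 8.76 on the dTip60E431Q ISO arrays, against 4.94 to 6.15 in dTip60E431Q EE, 4.79 to 5.96 in control ISO and 4.42 to 5.61 in control EE. The part of these other cell types in the results was not tested, and in such bulk samples fewer cells of a type and less RNA per cell cannot be told apart.

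Of the 26 called probe sets, 17 (0.0906% of those tested) were higher and 9 (0.048%) were lower in dTip60E431Q. With the arrays rescaled by cyclic loess the split was 16 higher and 16 lower, and with quantile normalization repeated it was 16 higher and 15 lower. Differences among the 26 ranged from 0.62 to 3.45 in size on the log2 scale, and 17 reached a fold of 2 (12 higher, 5 lower). The count depended on single arrays. It was 8 without dTip60E431Q ISO replicate 2, 10 without dTip60E431Q ISO replicate 1, 15 without dTip60E431Q EE replicate 2, 13 without control ISO replicate 1, 11 without control EE replicate 1 and 13 without control EE replicate 2. Tektin-C, Tip60, Mis12, tut, the first of the gkt probe sets and 3 probe sets without a symbol (1637622_s_at, 1638396_at and 1633970_at) stayed called with any 1 array left out.

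A fit with a mean for each group, its spread taken from all groups together, gave the genotype difference within each housing. In ISO it also called 20 of the 26 (0.799% of all probe sets were) and in EE 11 (0.181% of all). Both housings gave the call for 10 of them. The 26 were chosen by genotype on these same arrays, which makes such calls likely. Their shares are therefore no independent support when set beside those of all probe sets. None of the 26 had a difference that changed between housings at an adjusted p under 0.05 in limma's interaction test. Adjusted p ran from 0.371 to 0.993 there. The interaction had an unadjusted p under 0.05 in 2 of them, Drs and 1627637_at. The interaction test cannot show equal differences in members, which were chosen on the same arrays by a fit without an interaction term. In that fit, unequal differences in ISO and EE added to the residual spread and made a call less likely. The fit with a mean for each group removes this part of the spread. It gave 101 calls across both housings, all 26 among them, and the reason for the higher count was not tested. A member also had to differ in both housings by the way it was chosen. The closeness of the points to the line of equal differences is therefore a description only.

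**Figure D1:**
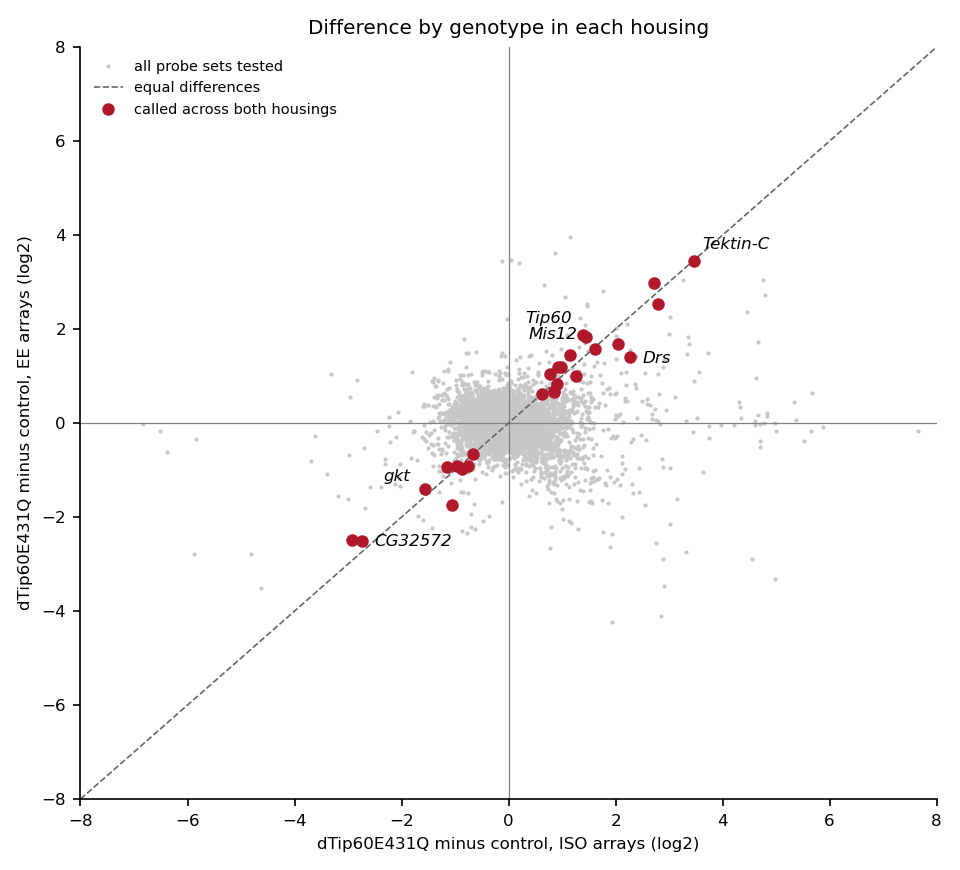
The log2 difference of dTip60E431Q minus control in ISO arrays (x axis) and in EE arrays (y axis) for 18769 probe sets in grey and the 26 called across both housings in red. The called points run along the line of equal differences, out to Tektin-C at 3.46 in ISO and 3.45 in EE, while the grey points with the widest ISO differences mostly lie near 0 in EE.

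The targeted gene separated the arrays by genotype. Tip60 had a log2 signal of 9.64 and 9.64 in dTip60E431Q ISO and 9.88 and 10.14 in dTip60E431Q EE, against 8.41 and 8.07 in control ISO and 8.18 and 8.09 in control EE. Every dTip60E431Q array exceeded every control array, by at least 1.22. The difference was 1.63 ± 0.13 (SE, n = 4 arrays each), a 3.10-fold higher signal with a limma adjusted p of 0.00578. It was 1.40 in ISO and 1.87 in EE. The array does not separate the mRNA of the transgene from that of the endogenous gene. Among 14 measured genes of the Tip60 complex list, Tip60 was the 1 that was called, and the other 13 had differences of -0.14 to 0.09.

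A kinetochore gene and a telomere gene were among those called higher. Mis12, which encodes a kinetochore protein, had 7.13 and 7.11 in dTip60E431Q ISO and 7.34 and 7.12 in dTip60E431Q EE, against 5.44 and 5.57 in control ISO and 5.76 and 5.56 in control EE. All dTip60E431Q arrays were above the array medians and all control arrays below them. Its signal rose by 1.59 ± 0.09 (SE), or 3.02-fold, with a limma adjusted p of 0.00112. HipHop, a telomere capping protein, had 7.52, 7.36, 7.47 and 7.29 on the dTip60E431Q arrays (ISO, then EE), against 6.14, 6.20, 6.34 and 6.43 on the control arrays in the same order. The groups lay 0.86 apart at their closest, and HipHop rose by 1.13 ± 0.09 (limma adjusted p = 0.00578). This call was lost without dTip60E431Q ISO replicate 2 (adjusted p = 0.0569).

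No other gene of the lists around these genes was called. Mis12 was 1 called gene of 11 measured in the kinetochore and centromere list, where cal1, which loads the centromeric histone, differed by -0.48 ± 0.11 and Spc105R, another kinetochore protein, by 0.52 ± 0.18, both uncalled. The median of that list was 0.15 (0.23 in ISO and 0.07 in EE), against 0.01 over all probe sets. At an unadjusted limma p under 0.05 with the fold, 2 were higher and 1 lower (1.86% and 1.68% of all probe sets were). Without overlap, 1 was higher and 1 lower (9.09% each, against 3.12% and 2.2% of all probe sets). HipHop was 1 called gene of 7 in the telomere capping list, whose median was -0.07 and lowest difference -0.31. Of 15 measured cell death and DNA damage genes none was called in limma (1 at an unadjusted p under 0.05 with the fold), including the checkpoint kinase gene lok at -0.44 ± 0.14, the end-joining gene Ku80 at 0.19 ± 0.07 and the helicase gene Blm at 0.20 ± 0.08, each without overlap between genotypes as deposited. As deposited, 2 of the 15 were higher without overlap (13.3%, against 3.12% of all probe sets) and 1 was lower (6.67%, against 2.2%). After each of the 3 rescalings, 3 genes of that list were higher without overlap and none was lower. Over all 18769 probe sets, 523 to 632 were then higher and 420 to 537 lower.

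Among the lower genes, gkt (glaikit) encodes the fly homolog of tyrosyl-DNA phosphodiesterase 1, a DNA repair enzyme. Its probe set 1624269_at had 6.97 and 6.87 in dTip60E431Q ISO and 7.32 and 7.14 in dTip60E431Q EE, against 8.38 and 8.60 in control ISO and 8.84 and 8.42 in control EE. It fell by 1.48 ± 0.12 (SE), 2.80-fold, with a limma adjusted p of 0.00555. A second probe set, 1626850_s_at, was 6.84 to 7.09 in dTip60E431Q and 7.48 to 7.65 in control, and fell by 0.66 ± 0.08 (adjusted p = 0.033). The third, 1624274_at, was 2.65 to 2.81 in dTip60E431Q and 2.53 to 3.34 in control, far below the array medians, so its difference of -0.06 says little about gkt.

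The insulator and chromatin gene mod(mdg4), which makes many transcript isoforms with alternative last exons, was called on 1 of 22 probe sets. That probe set, 1633152_at, had 6.35, 6.21, 6.60 and 6.27 on the dTip60E431Q arrays (ISO, then EE), against 7.24, 7.25, 7.37 and 7.32 on the control arrays. The control arrays lay close together and at least 0.63 above any dTip60E431Q array. It fell by 0.94 ± 0.09 (limma adjusted p = 0.0134). The other 21 probe sets of mod(mdg4) had differences of -0.32 to 0.18 and none was called. The lowest of them, 1639006_at, was also without overlap (-0.32 ± 0.13, adjusted p = 0.559), with 6.03 to 6.24 in dTip60E431Q and 6.26 to 6.78 in control. CG6891 had both of its probe sets higher without overlap, by 1.64 ± 0.16 (adjusted p = 0.0143) and by 1.03 ± 0.15 (adjusted p = 0.0741, not called).

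**Figure D2:**
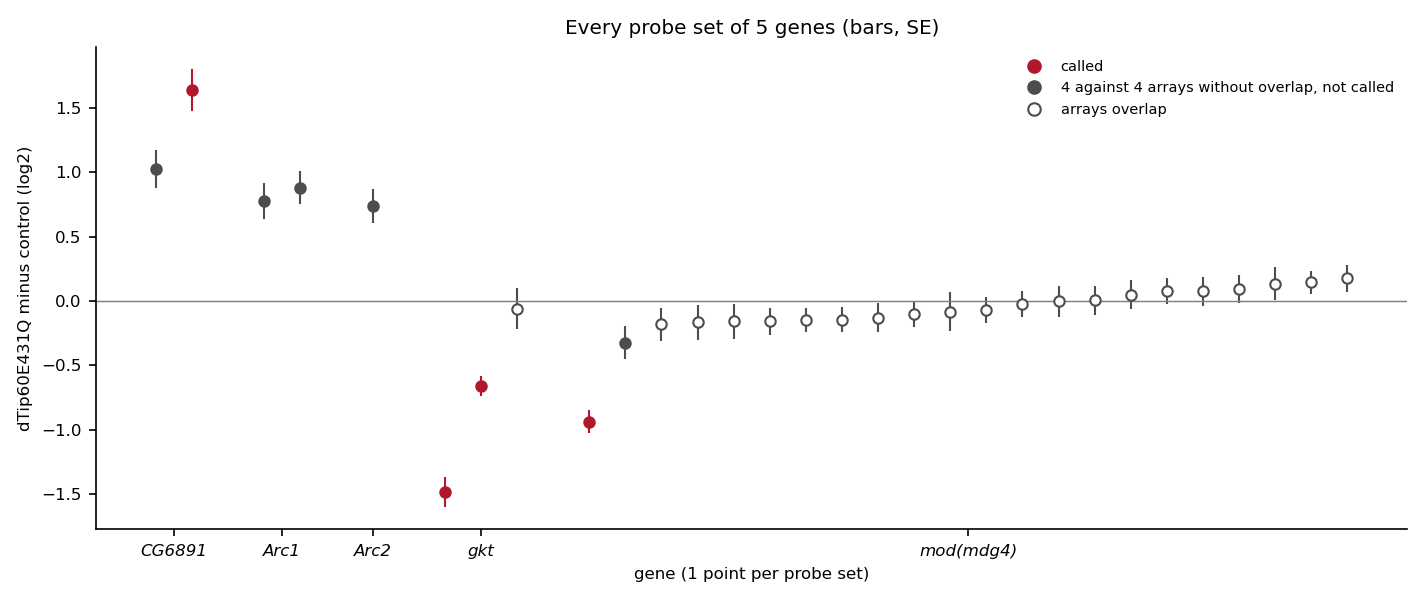
The log2 difference of dTip60E431Q minus control (points, with SE bars) for each probe set of CG6891, Arc1, Arc2, gkt and mod(mdg4), in red where called, filled grey where the 4 and 4 arrays do not overlap and open where they do. Both probe sets of CG6891 lie above 0, 2 of 3 of gkt lie well below it, and 1 of 22 of mod(mdg4) stands apart at -0.94.

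The largest difference among the called probe sets was in a gene known from cilia and sperm tails. Tektin-C, a filament protein of the axoneme, had 8.81 and 9.02 in dTip60E431Q ISO and 8.79 and 8.52 in dTip60E431Q EE, against 5.53 and 5.37 in control ISO and 5.47 and 4.95 in control EE. All control arrays were below the array medians and all dTip60E431Q arrays far above them. It rose by 3.45 ± 0.13 (SE), 11.0-fold, with a limma adjusted p of 0.000184, the smallest of all probe sets. The gene tut, an RNA-binding translational repressor of the male germ line, had 7.68, 7.51, 7.85 and 7.90 on the dTip60E431Q arrays (ISO, then EE), against 6.57, 6.33, 6.37 and 6.48 on the control arrays. It rose by 1.3 ± 0.10, 2.46-fold (adjusted p = 0.00555).

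Tektin-C and tut were the 2 called genes of 27 measured in the list of male germ line and sperm genes, and no other gene of that list was without overlap. The median difference of the list was -0.13, against 0.01 over all probe sets, with 9 of 27 above 0. Among 11 genes of the germ line and piRNA list none was called, and the Piwi gene aub had 0.67 ± 0.14 without overlap (adjusted p = 0.212). Males and females were pooled. Of 6 listed genes of male dosage compensation 4 were measured and none was called, the lowest being msl-2 at -0.28 ± 0.08. The median of the 4 was -0.15, with 1 of them above 0. Without overlap, 1 was lower (25%, against 2.2% of all probe sets) and none was higher. The part of sex composition in the differences by genotype was not tested.

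Drs, which encodes the antifungal peptide Drosomycin, had 11.19 and 11.10 in dTip60E431Q ISO and 9.27 and 9.93 in dTip60E431Q EE, against 8.95 and 8.79 in control ISO and 8.29 and 8.09 in control EE. The genotypes did not overlap but lay only 0.32 apart at their closest, and dTip60E431Q ISO was highest. It rose by 1.84 ± 0.21 (limma adjusted p = 0.0288), by 2.28 in ISO and 1.41 in EE, with a difference between housings of -0.87 ± 0.30 (EE minus ISO, adjusted p = 0.371). The call held without dTip60E431Q EE replicate 1 (adjusted p = 0.0131) and was lost without any other array (adjusted p from 0.0714 to 0.152). Drs was 1 called gene of 7 measured immune effectors, whose median difference was 1.96 in ISO and -0.15 in EE. Fat body markers, of a tissue that makes such peptides, had medians of 0.89 in ISO and -0.82 in EE, and hemocyte markers 0.45 and -0.20, and their part in the difference of Drs was not tested. The stress peptide gene TotC of that list had 2.44 ± 0.62, with overlapping arrays (adjusted p = 0.351).

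Of the remaining named genes, ninaD encodes a scavenger receptor for carotenoid uptake. It had 6.46, 6.39, 6.65 and 7.05 on the dTip60E431Q arrays (ISO, then EE), against 5.36, 5.52, 5.61 and 5.70 on the control arrays. It rose by 1.09 ± 0.11 (limma adjusted p = 0.0143). GILT3, of the lysosomal thiol reductase family, had 8.01, 7.82, 7.72 and 7.73 in dTip60E431Q, against 8.85, 8.70, 8.61 and 8.80 in control in the same order, with both genotypes above the array medians. It fell by 0.92 ± 0.09 (adjusted p = 0.0121).

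Other called genes are known only by number. CG32572 had 3.77, 4.26, 4.17 and 4.38 on the dTip60E431Q arrays (ISO, then EE), against 7.21, 6.30, 6.41 and 7.18 on the control arrays. It fell by 2.63 ± 0.25, a 6.19-fold lower signal (limma adjusted p = 0.0121), with every dTip60E431Q array far below the array median. CG6912, the brightest of the lower genes, was 9.74 to 10.05 in dTip60E431Q and 10.81 to 11.27 in control and fell by 1.04 ± 0.10 (adjusted p = 0.0143), and CR44101 fell by 0.84 ± 0.09 (adjusted p = 0.0246). In the other direction CG31076 rose by 1.05 ± 0.12 and CG4570 by 0.90 ± 0.11 (adjusted p = 0.0288 for each), and CG5895 by 0.76 ± 0.08 (adjusted p = 0.0143) and CG11437 by 0.75 ± 0.08 (adjusted p = 0.0197), the last 2 named after their values were seen. CG5895 was 9.65 to 9.82 in dTip60E431Q and 8.83 to 9.08 in control, the highest signal among these 4, while CG4570 reached at most 4.67 on any array.

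Some of the widest gaps belonged to the 7 called probe sets without a gene symbol (of all 18769 tested, 4720 had none). 1638396_at had 6.43, 6.18, 6.66 and 6.52 on the dTip60E431Q arrays (ISO, then EE), against 4.11, 3.05, 3.51 and 3.71 on the control arrays, a difference of 2.85 ± 0.22 (limma adjusted p = 0.00555). 1637622_s_at had 6.14, 6.33, 7.0 and 6.71 in dTip60E431Q, against 9.41, 8.91, 9.45 and 9.25 in control, a difference of -2.71 ± 0.15 (adjusted p = 0.00112). 1633970_at differed by 2.65 ± 0.20 and 1624543_s_at by 1.87 ± 0.16, with the last at 10.81 to 11.17 in dTip60E431Q and 8.94 to 9.54 in control. 1627637_at (-1.41 ± 0.17), 1630010_a_at (0.87 ± 0.09) and 1626438_at (0.62 ± 0.07) completed the set. Of all 17 higher probe sets, 10 had every control array below its array's median, and of the 9 lower ones, 3 had every dTip60E431Q array below it. The same shares over all probe sets were not counted, so these counts only describe signal levels.

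**Figure D3:**
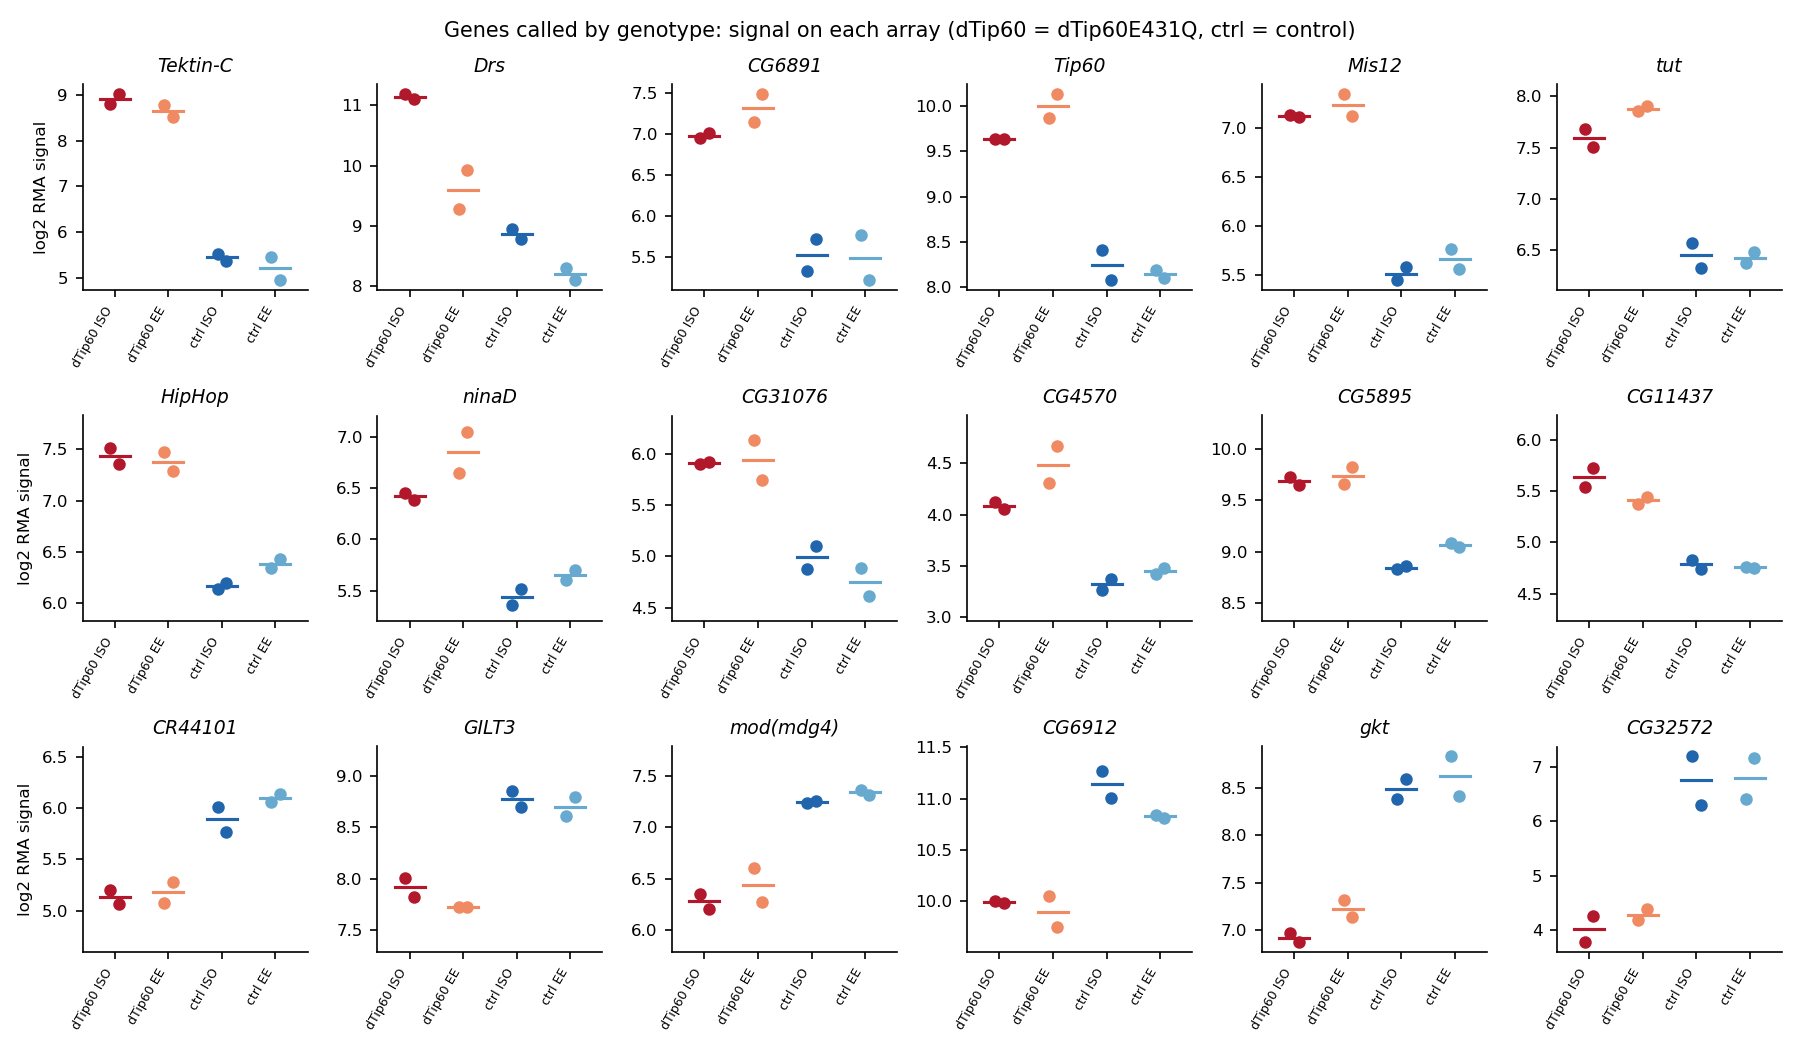
The log2 RMA signal of each array (points) and the mean of the 2 arrays of a group (lines) for the 18 called genes, with dTip60E431Q ISO and EE in red and orange and control ISO and EE in dark and light blue. In every panel the 4 dTip60E431Q points lie on the same side of the 4 control points, most widely for Tektin-C and most narrowly for Drs, and each axis spans its own range.

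At the edge of the adjusted p threshold, the last members inside were the second gkt probe set and 1627637_at (adjusted p = 0.033 for each in limma), and then Drs, CG31076, 1626438_at and CG4570 (0.0288 for each). The first outside were SkpB, a Skp1-related gene, with a difference of 0.67 (adjusted p = 0.0514), 1628286_at with -0.70 (0.0514) and tHMG2, an HMG-box gene, with 0.70 (0.0625). The 3 outside also had no overlap between genotypes.

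Genes next to the called genes on the chromosome, taken from the gene order of the RefSeq Release 6 annotation, were compared as well. Of 62 probe sets within 2 genes on either side of 16 called genes, none was called (0.139% of all probe sets were), 7 had no overlap (5.31% of all), and the median size of their difference was 0.153. Without overlap and in the direction of the called gene were CG31075 (1.3 ± 0.36) and TwdlC, a cuticle gene of the Tweedle family (0.74 ± 0.12), which flank CG31076, Arr1, the photoreceptor arrestin gene beside ninaD (0.70 ± 0.27), and CG3984 near CG6912 (-0.86 ± 0.12). In the opposite direction were CG8012 near tut (-0.67 ± 0.12), goe beside CG32572 (0.37 ± 0.11) and GlcAT-I near Tip60 (-0.19 ± 0.07).

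A wider set of 997 probe sets (5.31% of those tested) had no overlap between the 4 dTip60E431Q and the 4 control arrays, 585 (3.12%) higher and 412 (2.2%) lower. Their median difference was 0.272 in size, 691 of them were under a fold of 1.3, and 306 (1.63% of all tested) passed an unadjusted p under 0.05 with the fold, 147 higher and 159 lower. In all, with or without overlap, 666 probe sets (3.55%) passed that unadjusted threshold. The genes described next come from this set unless an overlap is stated, were named after their values were seen unless a list is given, and were not called.

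Genes induced by neuronal activity were among them. Arc1, a capsid-like regulator of synapses, had 11.52, 11.57, 11.22 and 11.54 on the dTip60E431Q arrays (ISO, then EE), against 10.41, 10.92, 10.58 and 10.42 on the control arrays, a difference of 0.88 ± 0.13 (limma adjusted p = 0.0741). Its second probe set gave 0.78 ± 0.14 and its paralog Arc2 gave 0.74 ± 0.13 (adjusted p = 0.136 for each). The EGR homolog sr (stripe) had 8.65, 8.45, 9.61 and 9.37 in dTip60E431Q, against 8.08, 8.28, 8.38 and 8.26 in control, 0.37 higher in ISO and 1.17 in EE. Of 9 measured activity-regulated genes, 4 were higher at an unadjusted p under 0.05 with the fold (1.86% of all probe sets were, and 1.68% were lower), namely these 3 genes and the nuclear receptor gene Hr38 (0.48 ± 0.19, arrays overlapping). The list's median was -0.06 in ISO and 0.50 in EE.

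Single genes of several kinds had lower signals without overlap. KaiR1D, a kainate-type glutamate receptor, had 8.55, 8.62, 8.79 and 8.39 on the dTip60E431Q arrays (ISO, then EE), against 9.60, 9.32, 9.20 and 9.32 on the control arrays, a difference of -0.77 ± 0.12 (limma adjusted p = 0.0851). The clock repressor gene cwo differed by -0.53 ± 0.07 (adjusted p = 0.0625) and was the 1 gene of 12 in the clock list without overlap, while 6 of the 12 lay above 0 (median -0.01). The odorant-binding protein genes Obp56e (-2.31 ± 0.37, adjusted p = 0.104) and Obp56f (-0.93 ± 0.14, adjusted p = 0.0741) had no overlap. In that family of 47 genes, these 2 were lower without overlap (4.26%, against 2.2% of all probe sets). Higher without overlap were 3 (6.38%, against 3.12%), Obp93a (0.60 ± 0.18), Obp8a (0.42 ± 0.16) and Obp50e (0.16 ± 0.08), and the family's median was 0.06. At an unadjusted limma p under 0.05 with the fold, 6 were lower and 3 higher (1.68% and 1.86% of all probe sets were). After cyclic loess none of the family was higher without overlap. Lower without overlap were also CheA29a, of a chemosensory protein family, at -1.06 ± 0.17, 1 of the probe sets of the gap gene gt at -1.08 ± 0.25 and the eclosion hormone gene Eh at -1.84 ± 0.73. Eh was 4.92 to 5.38 in dTip60E431Q but 5.41 to 8.93 in control, so its spread lay in the control arrays. The largest difference of the set on the lower side was that of CG7299 at -3.80 ± 0.66 (adjusted p = 0.124), where dTip60E431Q EE replicate 2 at 9.58 came close to control ISO replicate 1 at 9.61.

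Other single genes had higher signals without overlap. Cpr72Ec, Cpr49Ag and Cpr47Ea, of the Rebers-Riddiford cuticle protein family, differed by 2.01 ± 0.40, 1.53 ± 0.33 and 1.09 ± 0.28, and 4 of the 66 family genes (6.06%) were higher without overlap, against 3.12% of all probe sets. Their control arrays were widely spread, Cpr72Ec being 10.41 to 11.04 in dTip60E431Q and 7.87 to 9.54 in control. The amino acid transporter gene path had 1.48 ± 0.22 (adjusted p = 0.0851), the UDP-glycosyl transferase gene Ugt35A1 1.33 ± 0.23, and the ionotropic receptor gene Ir76a 0.60 ± 0.12. The cytochrome P450 genes Cyp12a5 (-0.74 ± 0.12) and Cyp28d2 (-0.54 ± 0.10) were 2 of the 3 genes lower without overlap in a family of 83 (3.61%, against 2.2% of all probe sets), where Cyp4d1 was the 1 higher (0.58 ± 0.19).

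Most subunits of oxidative phosphorylation showed small differences in 1 direction. Of 66 measured genes 24 (36.4%) were higher without overlap and 2 lower, against 3.12% and 2.2% of all probe sets, and 58 lay above 0. The median difference was only 0.12, and it was 0.12 in ISO and 0.13 in EE, with single genes from -0.36 to 0.65. Complex IV genes (14) had medians of -0.01 in ISO and 0.18 in EE. The complex I, complex III and ATP synthase genes had medians of 0.11 to 0.16 in ISO and 0.12 to 0.15 in EE. None was called in limma, and none passed an unadjusted p under 0.05 with the fold. Examples are the complex I genes ND-39 (0.33 ± 0.09) and ND-18 (0.30 ± 0.07), the complex IV gene COX8 (0.22 ± 0.06) and the ATP synthase gene ATPsynB (0.26 ± 0.08). The genes ND-42 (-0.16 ± 0.07) and ND-51L2 (-0.28 ± 0.11) were the 2 lower ones. The count depended on scaling, being 7 higher and 2 lower after cyclic loess (median 0.10), 15 and 3 after repeated quantile normalization (median 0.09) and 18 and 2 with arrays centred on their medians (median 0.12).

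Other lists held few such genes. Among 16 other HATs and HDACs none was called in limma or passed the unadjusted p with the fold, and 3 (18.8%, against 2.2% of all probe sets) were lower without overlap, the MYST family gene chm (-0.30 ± 0.09), Taf1 (-0.26 ± 0.10) and HDAC1 (-0.12). With none higher as deposited, 1 was higher after each of the 3 rescalings, and 2 rather than 3 were lower with arrays centred on their medians. Of 19 Polycomb, trithorax and remodelling genes, brm alone had no overlap, at -0.25 ± 0.07. Learning and memory genes (19 measured, median -0.02), synapse genes (20, median 0.01) and axon growth genes (17, median -0.01) had no call, with 0, 1 and 0 genes at an unadjusted p under 0.05 with the fold. Rab3, a small GTPase of synaptic vesicles, had 0.62 ± 0.13, and amn, a neuropeptide gene of memory, had -0.25 ± 0.09, both without overlap. The sign of the small synapse median turned after cyclic loess and after repeated quantile normalization.

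Marker lists of the sorted and of other cells had no called gene. Of 11 Kenyon neuron markers 10 were below 0, with a median of -0.14 and none without overlap, the lowest being prt (-0.46 ± 0.18), ey (-0.25 ± 0.14) and sNPF (-0.25 ± 0.09). Glia markers had a median of 0.07 (Mdr65 0.39 ± 0.09), photoreceptor markers 0.71 and midgut markers 2.04. The midgut median was 2.89 in ISO and 0.06 in EE, and the protease gene Jon25Biii had 11.10 and 11.07 in dTip60E431Q ISO, against 5.53 to 5.93 on the other arrays. Fat body markers (12 measured) had a median of 0.89 in ISO and -0.82 in EE, with mean signals of 10.42 to 10.44 in dTip60E431Q ISO and 8.89 to 9.46 in dTip60E431Q EE, against 8.72 to 9.17 in control ISO and 10.30 to 10.41 in control EE. The 2 measured markers of insulin-producing cells had a median of 0.58 in ISO and -1.43 in EE, and 13 hemocyte markers had 0.45 and -0.20. Muscle markers (11) had -0.44 in ISO and 0.21 in EE.

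**Figure D4:**
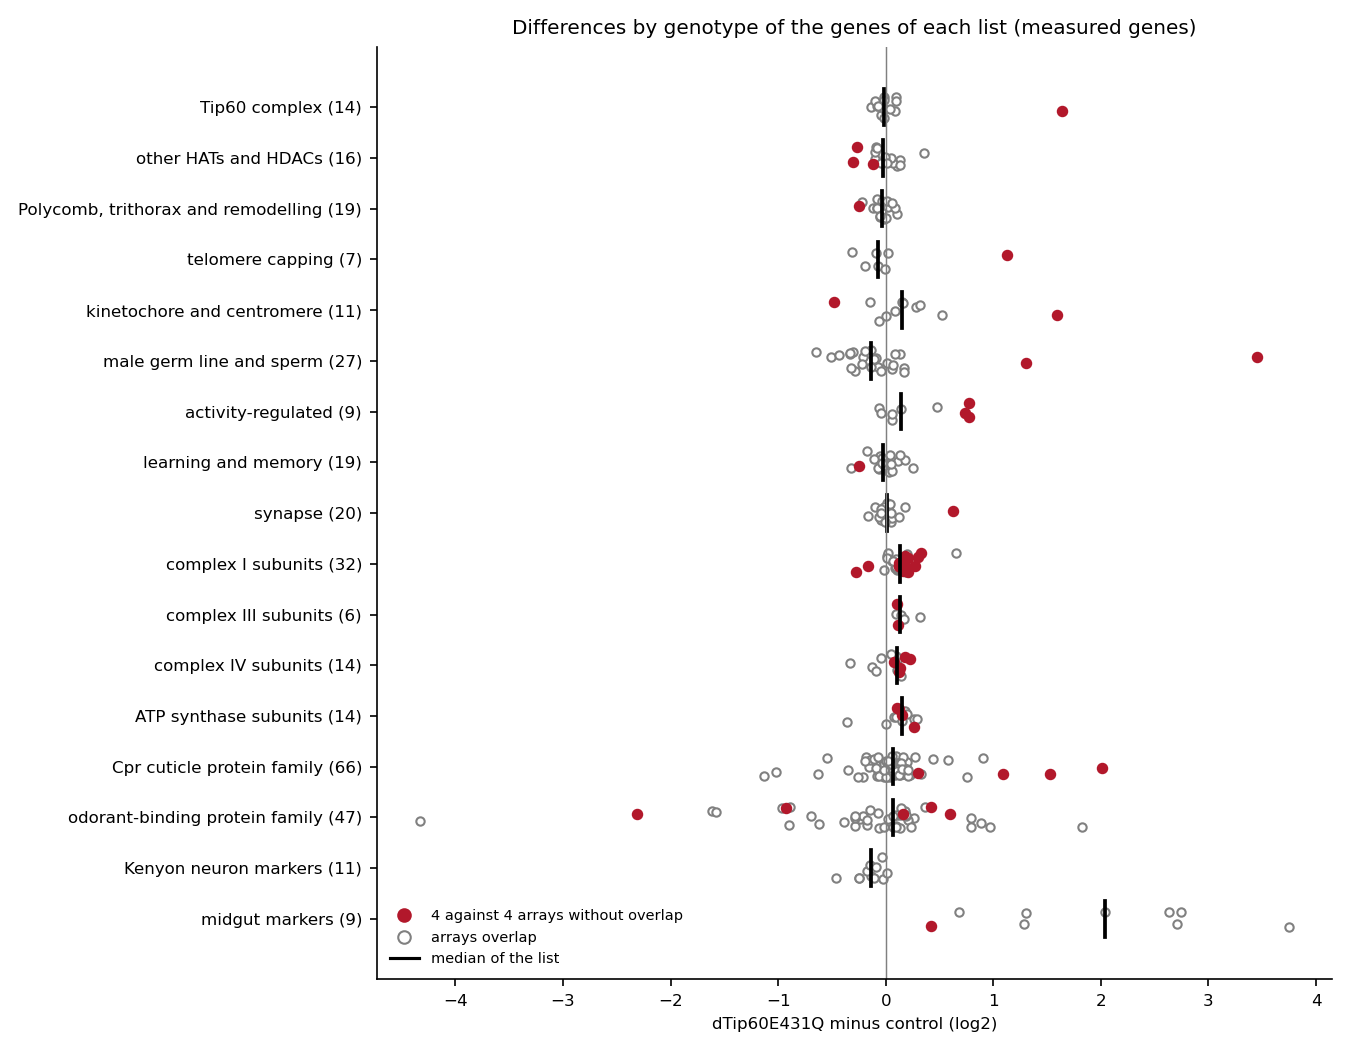
The log2 difference of dTip60E431Q minus control for each measured gene of 17 lists (number of genes in brackets), filled red where the 4 dTip60E431Q and 4 control arrays do not overlap and open where they do, with a line at the median. Single genes such as Tektin-C, Tip60, Mis12 and HipHop stand far from the rest of their lists, while most subunits of oxidative phosphorylation lie just above 0.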

How the data were processed

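RNA of sorted GFP-positive cells was measured on 8 Affymetrix Drosophila Genome 2.0 arrays. The deposited log2 values were made by the authors with RMA in R (which corrects background, quantile-normalizes the arrays and summarises the probes of each set); its version was not given in the sources used here. Quantile normalization in RMA gives the probes of all arrays 1 common distribution before they are summarised. A shift of most genes in 1 direction would therefore largely not show. The summarised values keep small differences between arrays, with medians of 6.41 to 6.50. The values were used as deposited, with 183 AFFX control probe sets of 18952 left out. Array annotation gave 1 gene symbol for 13647 of the 18769 probe sets tested, several for 402 and none for 4720, and its gene ID matched to RefSeq changed 0 symbols. Arrays have no read depth, and their number limits the precision.

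Arrays were grouped by their titles. limma 3.58.1 in R 4.3.3 was fitted with housing and genotype as terms (5 residual and 2.60 prior degrees of freedom), with Benjamini-Hochberg adjustment over all probe sets. Values within each housing and the interaction came from a fit with a mean for each group. Lists used the probe set of highest mean signal per gene and were described by counts and medians with no test of the list. On simulated data of 18769 probe sets, the fit with housing and genotype called 87% of 2-fold and 98% of 4-fold changes (100 of each), and 11 of 18569 unchanged probe sets. The simulation gave a probe set the same normal spread in every group and the same genotype difference in both housings. In the real data the spread between paired arrays was 0.183 to 0.479 and 126 probe sets had a called interaction, so these rates may not hold for them. Members, lists and tests were chosen with earlier results of these data known. Named were Tip60, up to 15 called genes per direction without those known only by number, the 3 largest genes known only by number per direction, called members of a list and up to 2 others of it, and the genes next to the threshold. Others were chosen after their values were seen. Alternatives were other designs, the methods' t-test, moderation, array weights, a replicate block, rescaling, filters on dim probe sets, 1 probe set per gene, other folds, averaging of 2 similar arrays and each array left out. Imaging, RT-qPCR and ChIP were not analysed here.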

Additional observations from a re-analysis of the deposited data

Results flagged for a closer look

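The difference by genotype of the midgut protease gene Jon25Biii was not the same in both housings, by -5.31 (log2, EE minus ISO) in limma's interaction test. It is no member of the called set.

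For each named gene, the 4 arrays of each genotype were searched for 1 array far from the other 3 by Dixon's ratio, its gap to the nearest array over the whole range. Of 166 sets of 4 arrays, 12 passed, and chance alone passes about 1 in 20. Among the dTip60E431Q arrays, EE replicate 1 stood apart for Mis12 (0.916), gkt probe set 1626850_s_at (0.844), Arc2 (0.849) and CG8012 (0.866), and EE replicate 2 for Cpr72Ec (0.83), HDAC1 (0.863) and prt (0.841). Among the control arrays, ISO replicate 1 stood apart for path (0.855), CG31075 (0.954), GlcAT-I (0.912) and brm (0.974), and EE replicate 2 for Ir76a (0.888). For Mis12 the array that stood apart was the highest at 7.34, farther from the control arrays than the other 3.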

How the results depend on the processing

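Of 25 other settings, at most 21 gave values for a named gene, and no such difference turned its sign (0 of 1683 values). The settings with EE arrays only, ISO arrays only and other folds gave counts alone, so signs were not compared there. Limma or t-test adjusted p rose to 0.05 or above in 149 of the values and fell below it in 33. Of the 26 members, 8 stayed called under every array left out. Against 26 calls, a mean for each group gave 101 (78 higher, 23 lower, all 26 among them), the methods' t-test 11 after adjustment, 1 probe set per gene 16, a fold of 2 gave 17, and the 2 dTip60E431Q ISO arrays counted as 1 gave 9. Leaving out each array gave 8 to 27. Chosen after seeing the data, EE arrays only gave 16 (6 of them members) and ISO arrays only 94 (7 of them members). Against 666 at an unadjusted p under 0.05 with the fold, the methods' t-test gave 424, dim probe sets left out 311, those dim in both genotypes left out 362, no minimum fold 1561, a fold of 2 gave 154, EE arrays only 1114 and ISO arrays only 1834, and leaving out each array 458 to 852. Against 585 higher and 412 lower without overlap, the values were 324 and 258 with dim probe sets left out, 333 higher with those dim in both left out, 266 lower with 1 probe set per gene, 30 and 22 at a fold of 2, and 761 to 1378 and 529 to 942 with each array left out, where 4 arrays face 3. The causes of the other shifts were not tested.

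Correlations of same-numbered deviations between groups ran from -0.0862 to 0.312. They were highest for control ISO with control EE (0.312) and for dTip60E431Q EE with control ISO (0.263). Whether replicate numbers pair the samples was not tested. With the replicate number as a block 21 probe sets were called, 19 of them members. Few arrays, and signals of some members below the array medians, limit what can be seen.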
